A study of Mus musculus with 12 samples.

Results

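The transcripts described here come from 45 mouse genes for the breakdown of glucose, and they were followed in CD8 T cells of WT and TCF-1 cKO mice, the latter made to delete the transcription factor TCF-1 in T cells. The genes were taken by symbol from a list of pathway members and not by a filter on their values. The list was, however, chosen with earlier results of these data known. They are 45 of the 35854 genes to which the deposited transcripts were joined. The list holds 21 genes for glucose uptake, glycolysis and lactate handling, 6 for the pentose phosphate pathway and 18 for pyruvate entry and the tricarboxylic acid (TCA) cycle.

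Glycolysis splits glucose into pyruvate in the cytosol and yields ATP and NADH. Pyruvate is then reduced to lactate and exported, or enters mitochondria, where the TCA cycle oxidizes its carbon. The pentose phosphate pathway branches off at glucose 6-phosphate and supplies NADPH and ribose for nucleotides. Resting T cells depend mostly on mitochondrial oxidation, and activated CD8 T cells are known for raised glucose uptake, glycolysis and lactate export as they divide and become effector cells.

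The study profiled sorted CD8 T cells by bulk RNA-seq in 4 groups of 3 libraries. WT and TCF-1 cKO donors were on the C57BL/6 background, and the TCF-1 cKO donors carried floxed Tcf7 alleles with a CD4cre transgene, which is active from the double-positive thymocyte stage and so also in the CD4 lineage. Pre-transplant cells came from the spleens of 3 different mice of each genotype. Post-transplant cells were H2Kb+ donor cells sorted at day 7 from the spleens of lethally irradiated BALB/c hosts that had received CD3 T cells of either genotype. The WT libraries are labelled as wild type, and libraries from donors with CD4cre alone were not analysed here. For the post-transplant libraries nothing in the labels ties a library to 1 host, so p-values measure the spread between libraries.

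A gene's level is given as normalized CPM, its estimated counts summed over transcripts and divided by the TMM-scaled library total in units of 1000000, and a log2 fold change is called at an FDR (Benjamini-Hochberg) below 0.1 in the quasi-likelihood test of edgeR, adjusted over all genes tested. TMM factors for CPM came from all 12 libraries, and those of each fit from the libraries compared. Ratios of CPM and log2 fold changes can therefore differ somewhat. Library totals ranged from 4520270 to 32657005 estimated counts, lowest in the TCF-1 cKO pre-transplant libraries, and 3 counts corresponded to between 0.0919 and 0.664 CPM. Tcf7, the deleted gene, lay between 76.0 and 166 CPM in WT and between 26.2 and 62.8 CPM in TCF-1 cKO pre-transplant libraries. Post-transplant it was 26.9 and 26.4 CPM in WT replicates 1 and 2 and between 13.6 and 14.6 CPM in TCF-1 cKO, but 10.7 CPM in the library labelled WT post-transplant replicate 3, below every TCF-1 cKO library. Results that rest on that library are therefore also given without it. The post-transplant libraries carried CD8 T cell transcripts, with Cd8a at 477 to 904 CPM against 1.25 to 6.99 CPM for Cd4, also in TCF-1 cKO post-transplant replicate 2, for which 1 label names CD4 T cells. The pre-transplant libraries did not look like pure CD8 T cells, with Cd8a at 26.5 to 154 CPM and Cd4 at 22.9 to 110 CPM. Cd4 exceeded Cd8a in WT replicate 2 (87.2 against 87.1 CPM) and in TCF-1 cKO replicate 3 (48.6 against 30.8 CPM). Cd8b1 was above Cd4 in each of these libraries, at 103 to 301 CPM. The 6 B and plasma cell markers summed to between 3942 and 13244 CPM there and to between 348 and 1024 CPM post-transplant. In bulk RNA, fewer cells of a type and less RNA per cell cannot be told apart.

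Post-transplant, every member called between the genotypes was lower in TCF-1 cKO than in WT donor CD8 T cells, and most of these genes belong to glycolysis. Of 44 members tested, 18 fell and 0 rose in TCF-1 cKO, which is 40.9% of the members against 15.4% of all genes called lower and 2.51% called higher. Ldhb, the heart-type lactate dehydrogenase subunit, was the only member with too few counts to be tested. The fall took in 11 of 20 genes of glycolysis and lactate handling (median log2 fold change -2.06), 3 of 6 of the pentose phosphate pathway (median -1.64) and 4 of 18 of pyruvate entry and the TCA cycle (median -0.36, and 0.05 when scaled by library totals). The median over all members was -1.25 against 0.15 over all genes tested. Removing each library's trend with GC content left 4 of the 18 calls, those of Slc2a3, Gpi1, Pcx and Ogdh, against 2.95% of all genes called lower.

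**Figure D1:**
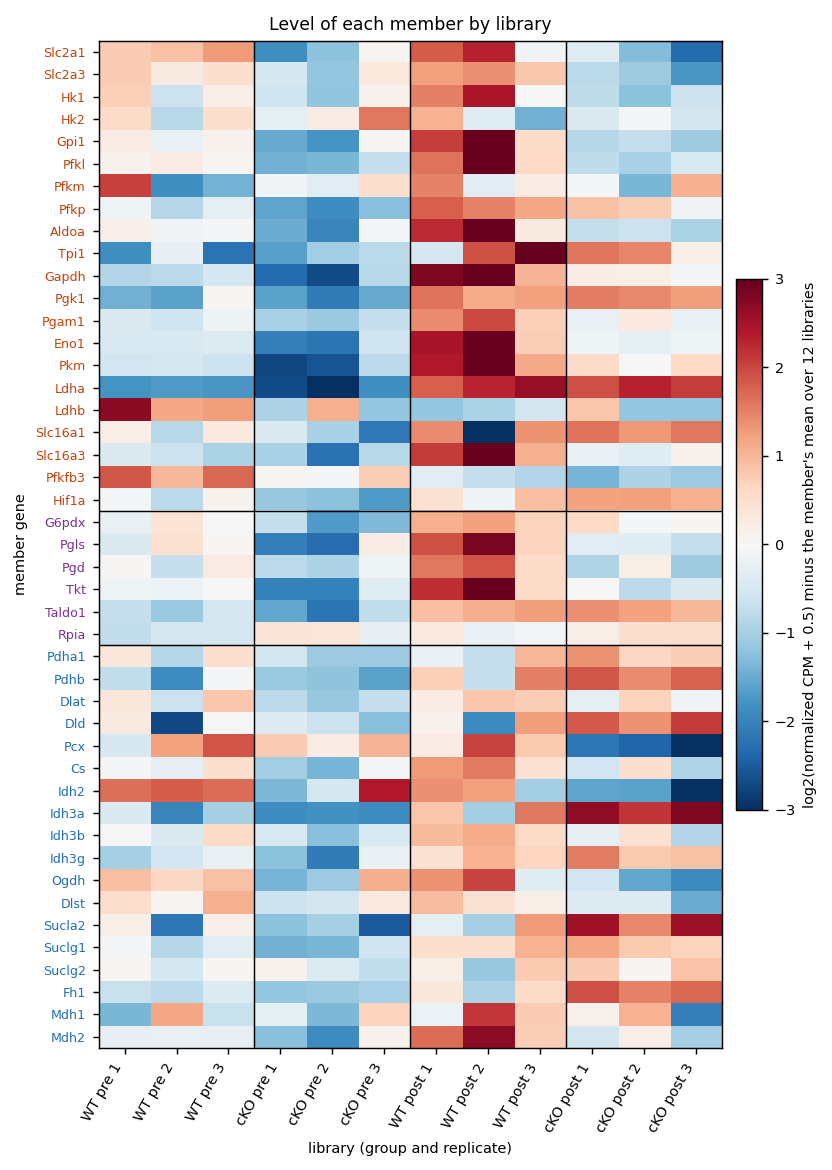
Each row is a member and each column a library, and the color gives log2(normalized CPM + 0.5) minus the member's mean over the 12 libraries, with the color scale ending at 3 units on either side. Most glycolytic rows are darkest red in WT post-transplant replicates 1 and 2, and replicate 3 of the same group is paler.

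Both glucose transporters fell. Slc2a1 (GLUT1, ENSMUSG00000028645, GRCm38 chr4:119108711-119137983), the transporter that activated T cells bring to their surface, was at 106, 150.0 and 28.2 CPM in the 3 WT libraries and at 22.8, 11.8 and 5.56 CPM in the 3 libraries labelled TCF-1 cKO. The lowest WT library, replicate 3, still lay above the highest TCF-1 cKO library, and the log2 fold change was -3.16 (SE 0.81, edgeR FDR 0.0484). Slc2a3 (GLUT3), a transporter of high affinity, was at 106, 118 and 78.7 CPM in WT and at 25.6, 21.2 and 13.2 CPM in TCF-1 cKO. Its WT libraries lay close together and far above the others, with a log2 fold change of -2.61 (SE 0.50, edgeR FDR 0.0448), and -2.93 (edgeR FDR 0.0933) after the GC trend was removed.

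In the upper part of glycolysis, from hexokinase to triose phosphates, 4 of 8 genes fell: Hk1, Gpi1, Pfkl and Aldoa. Gpi1, which turns glucose 6-phosphate into fructose 6-phosphate, was at 1243, 2531 and 435 CPM in WT and at 163, 179 and 141 CPM in TCF-1 cKO. All 3 WT libraries were higher than all 3 TCF-1 cKO libraries, with a log2 fold change of -3.42 (SE 0.69, edgeR FDR 0.0448), and the call held without the GC trend at -2.19. Aldoa, the aldolase that splits fructose 1,6-bisphosphate, was at 2579, 5389 and 659.7 CPM in WT and at 330.4, 350.1 and 282 CPM in TCF-1 cKO, a log2 fold change of -3.47 (SE 0.75, edgeR FDR 0.0448). The WT libraries of Aldoa spread widely, and replicate 3 lay nearer to the TCF-1 cKO libraries than to WT replicate 2. Hk1, the hexokinase that traps glucose in the cell, fell, with a log2 fold change of -2.82 (SE 0.69, edgeR FDR 0.0459), and Pfkl, the liver-type phosphofructokinase, fell likewise at -3.13 (SE 0.70, edgeR FDR 0.0448). The other phosphofructokinases and Hk2 did not pass the test: Pfkp, the platelet type and the most abundant per length, had a value of -1.23 (SE 0.46, edgeR FDR 0.129), Pfkm, the muscle type, -0.93 (SE 0.96, edgeR FDR 0.552), and the inducible hexokinase Hk2 -0.80 (SE 0.76, edgeR FDR 0.524). Tpi1, triose phosphate isomerase, was counted at only 2.31, 14.6 and 34.4 CPM in WT and at 11.7, 10.5 and 4.01 CPM in TCF-1 cKO, and the groups overlapped.

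In the lower part of glycolysis, from triose phosphates to pyruvate, 4 of 5 genes fell. Gapdh (glyceraldehyde 3-phosphate dehydrogenase, ENSMUSG00000057666, chr6:125161715-125166467), the step that makes NADH, was at 6469.6, 13138 and 1889 CPM in WT and at 1081, 1041 and 894 CPM in TCF-1 cKO. Replicate 2 of WT was the highest library by a wide margin and WT replicate 3 the lowest of its group, but the groups did not overlap and the log2 fold change was -3.14 (SE 0.69, edgeR FDR 0.0448). Eno1, the enolase, had the same order of WT libraries, with 6968, 13805 and 2096 CPM in WT and 1150.1, 1024 and 1152 CPM in TCF-1 cKO. Its log2 fold change was -3.09 (SE 0.67, edgeR FDR 0.0448), and the TCF-1 cKO libraries differed among themselves by far less than the WT libraries did. Pkm, pyruvate kinase, stood at 5157, 8518 and 2134 CPM in WT and at 1434, 952 and 1468 CPM in TCF-1 cKO, a log2 fold change of -2.35 (SE 0.56, edgeR FDR 0.0448) that shrank to -0.32 (edgeR FDR 0.59) without the GC trend. Pgam1, a phosphoglycerate mutase, fell with a value of -1.76 (SE 0.52, edgeR FDR 0.0681). Pgk1, phosphoglycerate kinase, was the exception of this segment, with 468, 324 and 355 CPM in WT, 435, 406 and 361 CPM in TCF-1 cKO and a log2 fold change of -0.21 (SE 0.40, edgeR FDR 0.76). Reads of Gapdh and Pgam1 are shared with near-identical copies elsewhere in the genome. Gene models of such copies held between 34.0% and 36.4% of the combined counts of Gapdh in the post-transplant libraries but between 36.0% and 65.1% in the pre-transplant libraries, highest in TCF-1 cKO. For Pgam1 the share ran from 0.0533% in WT post-transplant replicate 3 to 30.7% in TCF-1 cKO pre-transplant replicate 3. Both remained called lower post-transplant when these counts were added.

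Ldha, the lactate dehydrogenase subunit that turns pyruvate into lactate, did not pass the test. It had 6766, 9412 and 11994 CPM in WT and 7376, 9615 and 8245 CPM in TCF-1 cKO, so that the groups overlapped fully and WT replicate 3, low for Gapdh and Eno1, was the highest library of all. The log2 fold change of Ldha was -0.37 (SE 0.31, edgeR FDR 0.474). Per unit of transcript length Ldha was at 3241 ± 794 TPM in WT and 2859 ± 565 TPM in TCF-1 cKO (mean ± SD, n = 3). Gapdh exceeded it in WT replicates 1 and 2, with 3121 and 4589 TPM against 2766 and 2800.4 TPM, but not in the library labelled WT replicate 3, with 775 against 4158 TPM, nor in any TCF-1 cKO library, where Gapdh was at 401 ± 46.5 TPM. These Gapdh values leave out the counts given to its copies. Of the monocarboxylate transporters that carry lactate across the membrane, Slc16a3 (MCT4) was at 60.1, 146 and 29.4 CPM in WT and 11.7, 10.7 and 15.2 CPM in TCF-1 cKO and fell, with a log2 fold change of -2.94 (SE 0.68, edgeR FDR 0.0448). Slc16a1 (MCT1) was at 42.2, 1.01 and 39.8 CPM in WT, with replicate 2 far below the others, and at 48.9, 38.5 and 47.5 CPM in TCF-1 cKO. Neither regulator passed the test: Pfkfb3, which makes the phosphofructokinase activator fructose 2,6-bisphosphate, had a value of -0.82 (SE 0.51, edgeR FDR 0.327), and Hif1a, the hypoxia-inducible transcription factor that induces glycolytic genes, 0.46 (SE 0.43, edgeR FDR 0.512).

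**Figure D2:**
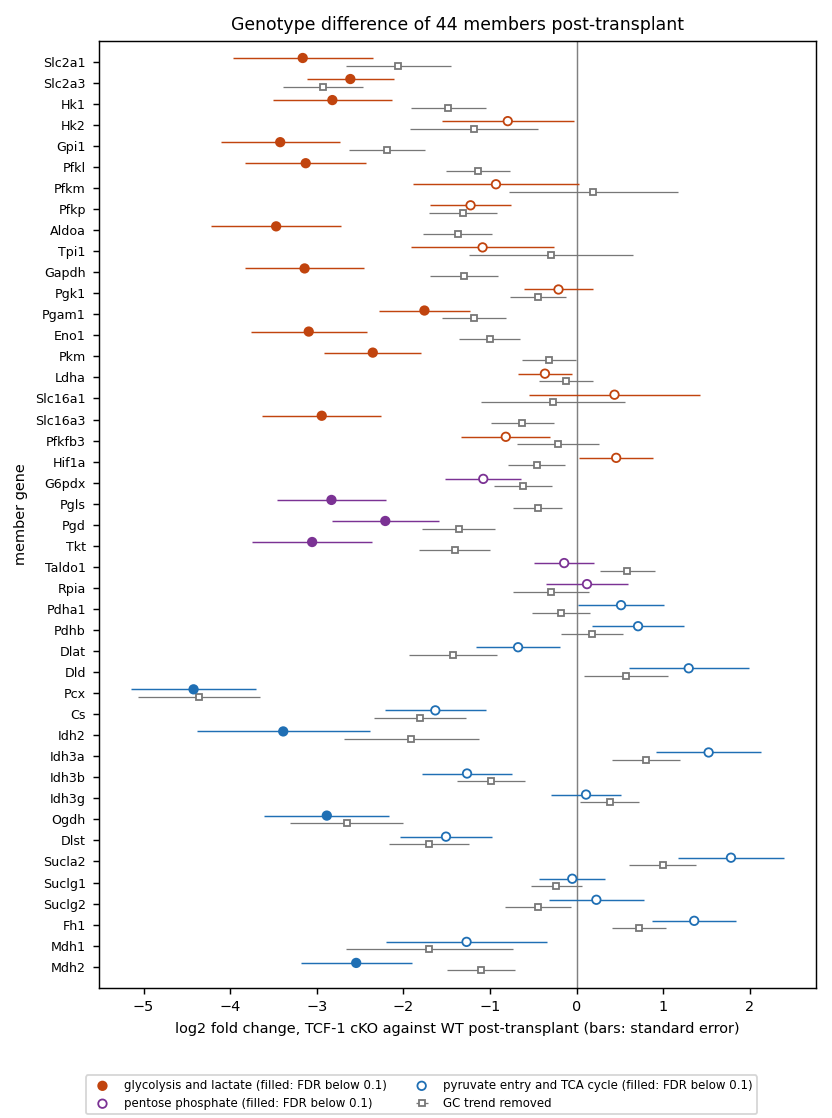
Points are log2 fold changes of TCF-1 cKO against WT post-transplant with standard errors for the 44 members tested, colored by pathway and filled where the edgeR FDR is below 0.1, and grey squares give the same value with each library's GC trend removed. Filled points all lie left of 0, and most grey squares lie nearer to 0 than the colored point above them.

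In the pentose phosphate pathway the oxidative enzymes Pgls and Pgd and the non-oxidative transketolase Tkt fell. Tkt, which shuttles carbon back to glycolysis, was at 1056, 2050.4 and 337 CPM in WT and at 225, 129.8 and 166 CPM in TCF-1 cKO. The groups did not overlap, WT replicate 2 was again the highest, and the log2 fold change was -3.05 (SE 0.69, edgeR FDR 0.0448). Pgls, 6-phosphogluconolactonase, fell, with a log2 fold change of -2.83 (SE 0.63, edgeR FDR 0.0448) and Pgd, 6-phosphogluconate dehydrogenase, also fell, at -2.21 (SE 0.62, edgeR FDR 0.0585). G6pdx, the enzyme that commits glucose 6-phosphate to the pathway, lay lower without overlap, at 162, 181 and 123 CPM in WT and 116, 73.9 and 80.5 CPM in TCF-1 cKO, but did not pass the test at -1.08 (SE 0.44, edgeR FDR 0.152). Transaldolase (Taldo1) and ribose 5-phosphate isomerase (Rpia) had values of -0.14 and 0.12, and their groups overlapped.

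Among 5 genes that bring pyruvate into the cycle, pyruvate carboxylase Pcx (ENSMUSG00000024892, chr19:4510472-4621752) had the lowest log2 fold change of any member. This enzyme refills oxaloacetate, and its mRNA was at 11.5, 40.7 and 17.1 CPM in WT and at 1.75, 1.41 and 0.679 CPM in TCF-1 cKO, a log2 fold change of -4.42 (SE 0.72, edgeR FDR 0.0448). The 3 annotated Pcx transcripts of at least 4000 bases held 228, 519 and 185 estimated counts in WT and 8, 2 and 1 in TCF-1 cKO, whereas a processed transcript of 275 bases held 8, 4 and 14 in WT and 10, 9 and 10 in TCF-1 cKO. Counts scaled from TPM, which weight the short transcript heavily, gave Pcx a log2 fold change of -0.81 (edgeR FDR 0.376), so its call depends on how transcripts are summed. The 4 subunits of the pyruvate dehydrogenase complex were not called, with values of 0.51 for Pdha1, 0.71 for Pdhb, -0.68 for Dlat and 1.29 for Dld. Dld, the dihydrolipoyl dehydrogenase shared with the oxoglutarate dehydrogenase complex, was at 41.7, 9.89 and 92.4 CPM in WT and at 139, 97.9 and 166 CPM in TCF-1 cKO, without overlap.

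Within the TCA cycle 3 of 13 genes fell, Idh2, Ogdh and Mdh2, and several subunits had values of the opposite sign. Idh2, the NADP-dependent mitochondrial isocitrate dehydrogenase, was at 49.1, 44.6 and 9.05 CPM in WT and at 5.94, 5.80 and 0.618 CPM in TCF-1 cKO, a log2 fold change of -3.39 (SE 1.00, edgeR FDR 0.0673). Ogdh, the first component of the oxoglutarate dehydrogenase complex, was at 317, 511 and 96.4 CPM in WT and at 83.6, 42.0 and 32.5 CPM in TCF-1 cKO. Its groups did not overlap, the log2 fold change was -2.88 (SE 0.72, edgeR FDR 0.0472), and the value without the GC trend was close to it at -2.66 (edgeR FDR 0.0947). Mdh2, mitochondrial malate dehydrogenase, fell, with a log2 fold change of -2.55 (SE 0.64, edgeR FDR 0.0475), and citrate synthase (Cs), which starts the cycle, had -1.63 (SE 0.59, edgeR FDR 0.114). The subunits Sucla2, of succinyl-CoA ligase, Idh3a, the catalytic subunit of NAD-dependent isocitrate dehydrogenase, and Fh1, fumarase, ran the other way. Sucla2 was at 38.0, 22.7 and 111 CPM in WT and at 269, 125 and 279.5 CPM in TCF-1 cKO, and Fh1 at 120.5, 49.8 and 139 and 361, 266 and 316 CPM. Idh3a was at 146, 40.0 and 245 CPM in WT and at 518, 361 and 562 CPM in TCF-1 cKO. In these 3 genes WT replicate 2 was the lowest library and every TCF-1 cKO library exceeded every WT library, but none passed the test, with log2 fold changes of 1.78, 1.36 and 1.52 and edgeR FDRs of 0.1004, 0.111 and 0.144. The other subunits of the same enzymes had Idh3b at -1.27, Idh3g at 0.11, Suclg1 at -0.05 and Suclg2 at 0.23, and Dlst, the second component of the oxoglutarate dehydrogenase complex, had -1.51 and cytosolic Mdh1 -1.27.

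Groups of normalized CPM did not overlap for 28 of the 44 members, with 23 lower in TCF-1 cKO (52.3%, against 17.3% of all genes tested) and 5 higher, Dld, Hif1a, Sucla2, Idh3a and Fh1 (11.4%, against 23.4%). For each of these the two-sided exact permutation p was 0.1, the smallest that 3 libraries against 3 can give. Of the 5 higher, Dld, Hif1a and Sucla2 had narrow gaps, and those of Idh3a and Fh1 were wider. The highest WT and lowest TCF-1 cKO libraries were at 92.4 and 97.9 CPM for Dld, 103 and 114 CPM for Hif1a and 111 and 125 CPM for Sucla2. Whether these gaps hold under the scaling of the fit was not tested. At an unadjusted p below 0.05 there were 26 members, 23 lower and 3 higher (of 44, against 28.1% of all genes in either direction).

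The calls depended on the library labelled WT post-transplant replicate 3 and on each of the others. Without it, 23 members fell (52.3%, against 19.4% of all genes) and 4 rose, Sucla2, Dld, Idh3a and Fh1 (9.09%, against 9.72%). The log2 fold changes were then -3.66 (edgeR FDR 0.0015) for Gapdh, -2.81 (edgeR FDR 0.0015) for Pkm and 2.43 (edgeR FDR 0.0152) for Sucla2, and Ldha stayed at -0.33 (edgeR FDR 0.474). Leaving out instead any of WT replicates 1 and 2 or TCF-1 cKO replicates 1, 2 and 3 left 0 members called, with 0 to 2 genes called in all.

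The direction of the members post-transplant followed the GC content of their transcripts. The mean GC content of the counts was 52.5%, 53.8% and 50.1% in WT post-transplant replicates 1, 2 and 3 and 48.2%, 49.3% and 48.05% in TCF-1 cKO. Across the 44 members, Spearman's rho between transcript GC content and log2 fold change was -0.783, and it was -0.568 across all 16026 genes tested. These are descriptions, since the genes share the same libraries. No member of the 10 with a GC content up to 48% was called, 1 of 9 between 48% and 51%, 4 of 10 between 51% and 54%, 8 of 10 between 54% and 57% and 5 of 5 above 57%. Of all genes tested, 3.36% were called in either direction at a GC content up to 45%, 4.02% between 45% and 48%, and 6.75%, 20.5%, 41.4% and 56.0% in the 4 intervals above. The glycolytic members had a median GC content of 54.2%, the pentose phosphate members 53.7% and those of pyruvate entry and the TCA cycle 49.7%, the same order as their median fold changes. Whether the difference in GC content between the libraries sets these fold changes was not tested.

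**Figure D3:**
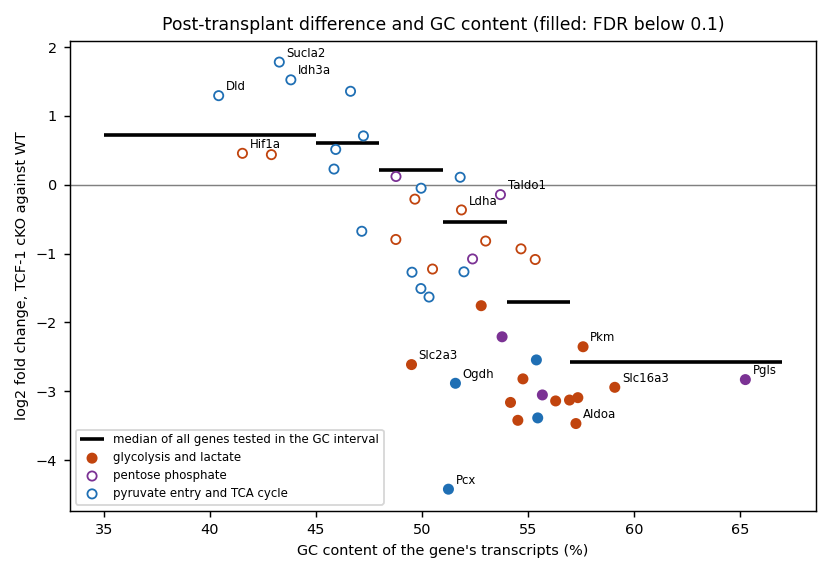
Each point is a member, placed by the GC content of its transcripts in percent and its log2 fold change of TCF-1 cKO against WT post-transplant, filled where the edgeR FDR is below 0.1, and black lines are the medians of all genes tested in 6 GC intervals. The members descend with the lines from Dld and Sucla2 at the upper left to Aldoa, Slc16a3 and Pgls at the lower right, and Pcx, Slc2a3 and Ogdh lie well below their line. The place of Pcx rests on a GC content weighted by TPM, which leans to its short transcripts.

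Stretches of coding sequence from either end of this range show the contrast, each being the middle 100 bases of the longest coding exon, on the coding strand of GRCm38, with G and C in capitals. They were picked after the values were seen. Pgls (chr8:71592311-71592410, 74% GC) and Aldoa (chr7:126797393-126797492, 59% GC) fell, and Idh3a (chr9:54596046-54596145, 42% GC) and Dld (chr12:31335511-31335610, 33% GC) had positive fold changes.
Pgls: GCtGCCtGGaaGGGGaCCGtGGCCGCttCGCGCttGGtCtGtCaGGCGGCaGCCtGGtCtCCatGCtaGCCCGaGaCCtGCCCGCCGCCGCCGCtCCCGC
Aldoa: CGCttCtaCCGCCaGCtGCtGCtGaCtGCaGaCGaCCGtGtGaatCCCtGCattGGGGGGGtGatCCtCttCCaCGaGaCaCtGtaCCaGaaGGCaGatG
Idh3a: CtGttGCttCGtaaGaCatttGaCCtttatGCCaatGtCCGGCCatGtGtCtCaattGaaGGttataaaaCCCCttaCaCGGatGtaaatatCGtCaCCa
Dld: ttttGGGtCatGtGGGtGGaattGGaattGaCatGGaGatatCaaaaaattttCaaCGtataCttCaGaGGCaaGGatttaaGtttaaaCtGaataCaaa

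With each library's GC trend subtracted, 36 of 44 members still had negative log2 fold changes, with a median of -0.81 against -0.13 for all genes, and rho across the members was -0.302. Medians were then -1.07 for glycolysis, -0.53 for the pentose phosphate pathway and -0.72 for pyruvate entry and the TCA cycle. The 4 calls that held were Slc2a3 at -2.93, Gpi1 at -2.19, Pcx at -4.36 and Ogdh at -2.66 (edgeR FDR 0.0933 for the first 3 and 0.0947 for Ogdh), which is 9.09% of the members. A gene's GC content is the mean of its transcripts weighted by TPM, which for Pcx was 51.3% and leaned to its short transcripts. The coding sequence of its most abundant coding transcript held 57.8% GC. Whether the call of Pcx would hold at that GC content was not tested. Without the library labelled WT post-transplant replicate 3, the same subtraction left 22 of 44 members lower (against 13.1% of all genes).

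Other genes of these pathways, a list of 58 with isoenzymes, the remaining TCA and pyruvate genes and their regulators, were examined in the same fit. Of 48 tested post-transplant, 5 fell and 1 rose, where 15.4% of all genes fell and 2.51% rose. Myc, a transcription factor that induces glycolytic genes in dividing T cells, was at 40.2, 82.2 and 16.0 CPM in WT and 9.09, 6.58 and 5.62 CPM in TCF-1 cKO and fell, with a log2 fold change of -3.01 (SE 0.70, edgeR FDR 0.0448). Sdhd, a membrane subunit of succinate dehydrogenase, fell with a value of -2.42 (SE 0.58, edgeR FDR 0.0453) and Egln2, a prolyl hydroxylase that acts on HIF subunits, with -2.70 (SE 0.69, edgeR FDR 0.0485). Pdp1, the phosphatase that activates pyruvate dehydrogenase, rose by 1.66 (SE 0.53, edgeR FDR 0.0845). With the GC trend removed 1 of the 48 was called lower and 0 higher, against 2.95% and 0.886% of all genes.

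Some markers of other cells moved with genotype post-transplant. The 6 B and plasma cell markers summed to between 623 and 1024 CPM in WT and to between 348 and 587 CPM in TCF-1 cKO, most of it Ighm at 586, 925 and 572 CPM and at 530.0, 381 and 306 CPM, and the groups of the other 5 overlapped. The 3 plasmacytoid dendritic markers summed to between 83.5 and 185 CPM in WT and to between 46.8 and 72.9 CPM in TCF-1 cKO, most of it Bst2 at 99.3, 174 and 73.5 CPM and at 32.1, 52.6 and 21.1 CPM. Tcf4 of the same list lay the other way without overlap, at 9.66, 5.76 and 9.64 CPM in WT and 17.6, 18.3 and 20.6 CPM in TCF-1 cKO, and Siglech overlapped. The 6 erythroid markers ran from 317 to 2613 CPM in WT and from 349 to 837 CPM in TCF-1 cKO, highest in WT replicate 2. The 6 myeloid markers ran from 183 to 273 CPM in WT and from 198 to 750 CPM in TCF-1 cKO. S100a8 and S100a9 were higher in TCF-1 cKO without overlap, S100a8 only by 74.75 against 74.60 CPM. Lyz2, Csf1r, Itgam and Cd68 overlapped. Cd68 leaned the other way, at 84.3, 151 and 54.4 CPM in WT and 69.1, 26.6 and 43.7 CPM in TCF-1 cKO. The 6 T cell markers ran from 5132 to 6850 CPM and from 6203 to 8387 CPM, a sum of opposite moves. Cd3e was lower without overlap, at 769, 1745 and 309 CPM in WT and 193, 150 and 154 CPM in TCF-1 cKO. Cd3g was higher without overlap, at 756, 325 and 1718 CPM and 3315, 2175 and 3549 CPM, as was Cd3d. Cd8a, Cd8b1 and Cd4 overlapped. The part of all these markers in the members' differences was not tested.

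Several steps are served by more than 1 isoenzyme, and the share of each in a library does not depend on scaling between libraries. The shares were not corrected for a library's GC trend, and its part in them was not tested. Shares are given in percent of the summed TPM, and 36 comparisons of shares were tested by two-sided exact permutation tests, in which the smallest adjusted p was 0.327, so none could pass 0.05. Slc16a3 made up 76.9, 99.7 and 60.5% of the 2 lactate transporters in WT post-transplant libraries and 35.2, 40.3 and 43.0% in TCF-1 cKO, without overlap and with a difference of means of -39.6 percentage points. Transcript GC content was 59.1% for Slc16a3 and 42.9% for Slc16a1. Over the alternative fits the post-transplant log2 fold change of Slc16a3 ran from -3.41 to -0.53, and that of Slc16a1 was -0.27 with the GC trend removed. Suclg2, the GTP-specific partner of succinyl-CoA ligase, made up 35.4, 24.9 and 23.6% of Suclg2 and Sucla2 in WT and 11.1, 15.8 and 10.98% in TCF-1 cKO, a difference of -15.3 percentage points. Hk2 made up 7.57, 1.15 and 14.8% of both hexokinases in WT and 24.3, 40.9 and 22.8% in TCF-1 cKO, a difference of 21.5 percentage points, and pre-transplant it was 13.8, 19.5 and 14.7% in WT and 25.2, 49.2 and 25.1% in TCF-1 cKO, a difference of 17.1 percentage points. The share of Hk2 was thus higher in TCF-1 cKO without overlap at both stages, although its CPM overlapped at both. A processed Hk2 transcript of 594 bases held 5, 0 and 5 counts in WT post-transplant and 21, 23 and 23 in TCF-1 cKO, whereas the 5513-base coding transcript held 347, 79 and 18 in WT and 45, 76 and 53 in TCF-1 cKO. Slc2a3 made up 49.5, 49.4 and 42.3% of the 2 glucose transporters in WT pre-transplant and 81.3, 55.02 and 59.5% in TCF-1 cKO, and its post-transplant shares overlapped. Pfkp was the leading phosphofructokinase in every library, between 52.2% and 90.1% of the 3, and Ldhb never exceeded 3.19% of lactate dehydrogenase.

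**Figure D4:**
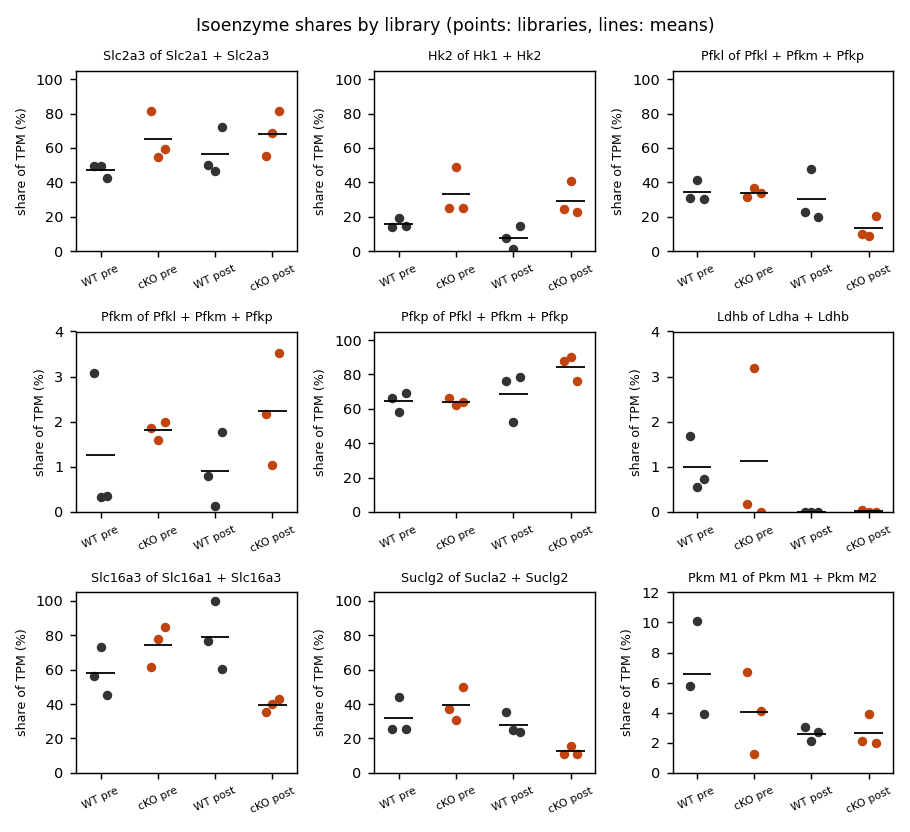
Each panel gives the share of 1 gene or exon in the TPM of the set named above it, in percent, for the 12 libraries, with points for libraries and lines for group means (n = 3). The TCF-1 cKO post-transplant points of Slc16a3 and Suclg2 lie below all 3 WT post-transplant points, and those of Hk2 above them, and the axes of Pfkm, Ldhb and Pkm M1 end at 4% or 12%.

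Pkm makes M1 and M2 pyruvate kinase by use of either of 2 exons of 167 bases, and the M2 form is known from dividing cells. The exons lie on the plus strand of GRCm38 at chr9:59675029-59675195 (M1) and chr9:59675568-59675734 (M2) and are given here with the 64 bases that differ between them in capitals.
Pkm M1: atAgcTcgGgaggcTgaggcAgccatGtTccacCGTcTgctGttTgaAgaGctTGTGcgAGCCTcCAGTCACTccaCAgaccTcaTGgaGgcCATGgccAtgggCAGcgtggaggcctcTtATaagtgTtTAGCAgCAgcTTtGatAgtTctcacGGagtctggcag
Pkm M2: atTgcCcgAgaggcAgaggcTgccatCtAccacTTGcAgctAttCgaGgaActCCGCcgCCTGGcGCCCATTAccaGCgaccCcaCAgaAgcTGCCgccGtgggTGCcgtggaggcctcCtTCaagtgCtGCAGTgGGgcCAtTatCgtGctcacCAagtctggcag
Each exon is held by 1 of the 11 annotated Pkm transcripts. The M1 transcript made up 3.03, 2.09 and 2.71% of the pair in WT post-transplant and 2.10, 3.91 and 1.98% in TCF-1 cKO, so M2 prevailed in both genotypes and the groups overlapped. Pre-transplant the M1 share was 5.79, 10.1 and 3.89% in WT and 6.72, 1.27 and 4.09% in TCF-1 cKO.

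Pre-transplant, no member was called between the genotypes. Of 45 tested, 0 fell and 0 rose, where 0.0213% of all genes were called lower and 0.016% higher. At an unadjusted p below 0.05 there were 5 members, all lower in TCF-1 cKO, against 17.7% of all genes in either direction. Slc2a1 had the smallest FDR, with 50.7, 55.4 and 72.8 CPM in WT, 7.99, 12.3 and 31.2 CPM in TCF-1 cKO and a log2 fold change of -1.64 (SE 0.52, edgeR FDR 0.212). The others were Pfkl at -1.08, Pfkp at -0.95, Pfkfb3 at -1.10 and G6pdx at -1.06, with edgeR FDRs between 0.232 and 0.264. Negative values were found for 41 of the 45, with a median of -0.65 against 0.05 for all genes, and -0.91 against -0.34 with the GC trend removed. Groups did not overlap for 15 members lower in TCF-1 cKO (33.3%, against 14.2% of all genes) and 1 higher, Rpia (2.22%, against 16.1%).

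TCF-1 cKO pre-transplant replicate 3 differed from the other libraries of its group. Aldoa was at 609.6, 505 and 529 CPM in WT and at 194, 137 and 525 CPM in TCF-1 cKO, where replicate 3 reached the WT level. Gapdh, at 503, 541 and 647 CPM in WT and 188, 145 and 520.4 CPM in TCF-1 cKO, had the same order within TCF-1 cKO. The mean GC content of the counts was 48.2%, 47.1% and 52.1% in the 3 TCF-1 cKO libraries and between 50.5% and 52.1% in WT. With that library left out, 16 members were called lower in TCF-1 cKO, against 8.91% of all genes. The 6 T cell markers summed to between 904 and 1058 CPM in WT and to between 267 and 445 CPM in TCF-1 cKO, and the B and plasma cell markers to between 8802 and 13244 CPM and between 3942 and 9447 CPM. The erythroid markers summed to between 3431 and 11555 CPM in WT and to between 2117 and 17088 CPM in TCF-1 cKO. Their part in the members' values was not tested.

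The lower part of glycolysis rose from before transplant to day 7 in both genotypes, with all 5 genes called in each under TMM scaling, although Pgam1 and Eno1 had negative values in TCF-1 cKO when scaled by library totals. With the counts of copies added, Pgam1 was no longer called in TCF-1 cKO, at 0.66 (edgeR FDR 0.23) against 0.89, and Gapdh rose by 3.27 in WT and by 1.29 (edgeR FDR 0.053) in TCF-1 cKO. The genotype difference of Gapdh pre-transplant was then -0.43 in place of -0.84, and its interaction -2.22 (edgeR FDR 0.258) in place of -1.85. In WT, 16 of 45 members rose (35.6%, against 9.7% of all genes) and 2 fell (4.44%, against 10.3%). In TCF-1 cKO, 20 of 44 rose (45.5%, against 19.8%) and 3 fell (6.82%, against 16.8%). With the GC trend removed, 22 rose in WT (48.9%, against 14.8%) and 25 in TCF-1 cKO (56.8%, against 21.5%). Without the library labelled WT post-transplant replicate 3, 19 rose in WT (42.2%, against 13.4%).

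Ldha had the largest rise of any member in both genotypes. In WT it went from 559, 596 and 578 CPM to 6766, 9412 and 11994 CPM, a log2 fold change of 3.75 (SE 0.42, edgeR FDR 0.000873). In TCF-1 cKO it went from 303, 205 and 544 CPM to 7376, 9615 and 8245 CPM, a log2 fold change of 4.58 (SE 0.48, edgeR FDR 0.000194). Every post-transplant library exceeded every pre-transplant library by a wide margin. In WT the next largest rises were those of Gapdh at 3.43 (SE 0.66, edgeR FDR 0.00854), Tpi1 at 3.39, Slc16a3 at 2.95 (SE 0.69, edgeR FDR 0.0196), Eno1 at 2.81 (SE 0.63, edgeR FDR 0.0165) and Pkm at 2.79 (SE 0.55, edgeR FDR 0.00903), and Tkt rose by 2.22. In TCF-1 cKO Gapdh rose by 1.82 (SE 0.50, edgeR FDR 0.0226) and Pkm by 2.15 (SE 0.55, edgeR FDR 0.0173), and Slc16a3 had a value of 1.16 (edgeR FDR 0.141). Pgk1, not called between genotypes post-transplant, rose by 1.91 in WT and 3.14 in TCF-1 cKO, and Taldo1 by 1.58 and 2.57.

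In pyruvate entry and the TCA cycle 8 of 18 members were called higher in TCF-1 cKO (against 19.8% of all genes) and 1 of 18, Mdh2, in WT (against 9.7%), and the interaction between genotype and stage was not called for any of them. Idh3a went from 22.03, 22.7 and 21.9 CPM to 518, 361 and 562 CPM, a log2 fold change of 4.43 (SE 0.38, edgeR FDR 0.000116), and in WT it had a value of 1.57 (SE 0.70, edgeR FDR 0.169). Sucla2 rose by 3.75 (SE 0.55, edgeR FDR 0.00103) in TCF-1 cKO, where WT had 0.32, and Fh1 by 2.81 (SE 0.34, edgeR FDR 0.000397), where WT had 0.49. Pdhb, the beta subunit of the E1 component of pyruvate dehydrogenase, rose by 2.98 (SE 0.36, edgeR FDR 0.000384) and Dld by 2.53 (SE 0.41, edgeR FDR 0.00183). Hif1a rose by 2.52 (SE 0.36, edgeR FDR 0.00093) in TCF-1 cKO and had a value of 0.43 (SE 0.52, edgeR FDR 0.643) in WT.

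Few members fell after transplant. Pfkfb3 fell in both genotypes, from 55.1, 29.3 and 49.96 CPM to 11.8, 8.80 and 7.85 CPM in WT (-2.46 (SE 0.59, edgeR FDR 0.0212)) and from 15.3, 14.4 and 24.8 CPM to 5.33, 7.52 and 6.61 CPM in TCF-1 cKO (-1.49 (SE 0.45, edgeR FDR 0.0363)). Ldhb fell in WT, from 6.74, 1.998 and 2.14 CPM to 0, 0.0779 and 0.256 CPM, levels that post-transplant are near or below that of 3 counts. In TCF-1 cKO Pcx fell from 16.6, 11.4 and 19.9 CPM to 1.75, 1.41 and 0.679 CPM (-3.65 (SE 0.59, edgeR FDR 0.00172)) and Idh2 from 7.11, 12.9 and 102 CPM to 5.94, 5.80 and 0.618 CPM (-3.30 (SE 1.10, edgeR FDR 0.0512)), where WT had values of -0.23 and -1.08. The fall of Idh2 rests on TCF-1 cKO pre-transplant replicate 3, the library at 102 CPM, without which its value was -1.16 (edgeR FDR 0.377). Both glucose transporters stayed uncalled in either genotype, with Slc2a1 at 0.44 in WT and -0.36 in TCF-1 cKO and Slc2a3 at 0.39 and -0.86.

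**Figure D5:**
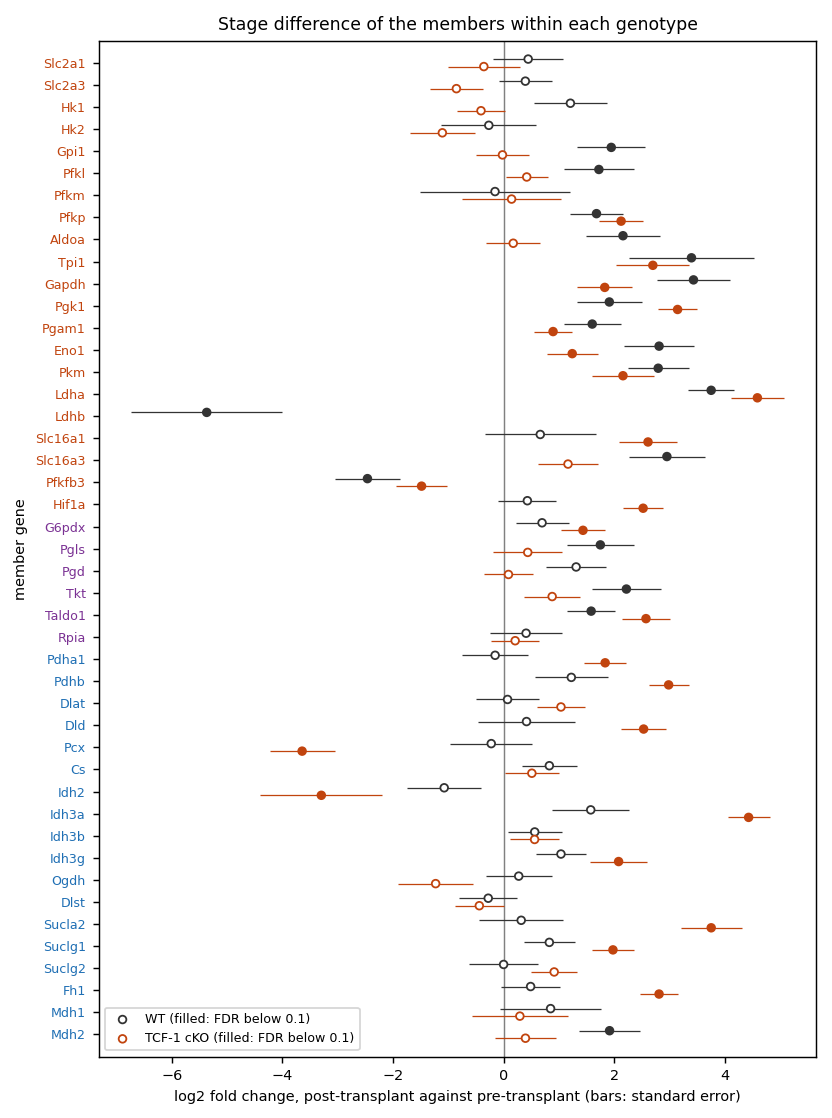
Points are log2 fold changes of post-transplant against pre-transplant libraries with standard errors for each member, dark for WT and orange for TCF-1 cKO, filled where the edgeR FDR is below 0.1. Both colors are filled and right of 0 for the genes from Gapdh to Ldha, whereas from Pdha1 to Fh1 only orange points are filled.

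The stage comparisons set libraries rich in B cell and erythroid transcripts against libraries that were not, and the scaling matters for them. Scaled by library totals alone, without TMM, the median of all genes moved to -1.25 in WT and -1.89 in TCF-1 cKO, and the members called became 3 lower and 5 higher of 45 in WT (against 24.6% of all genes lower and 4.27% higher) and 17 lower and 8 higher of 44 in TCF-1 cKO (against 57.2% lower and 8.96% higher). The 6 T cell markers summed to between 267 and 1058 CPM pre-transplant and to between 5132 and 8387 CPM post-transplant, and the part of this shift in the members' changes was not tested. Of the 58 other pathway genes, 52 were tested in each genotype under TMM scaling. In WT 5 fell and 6 rose, where 10.3% of all genes fell and 9.7% rose. In TCF-1 cKO 9 fell and 16 rose, where 16.8% of all genes fell and 19.8% rose. Sdhb, the iron-sulfur subunit of succinate dehydrogenase, rose by 3.67 (SE 0.46, edgeR FDR 0.00127) in WT and 4.92 (SE 0.46, edgeR FDR 0.000149) in TCF-1 cKO. Pdk1, the kinase that inactivates pyruvate dehydrogenase, fell with values of -3.02 (SE 0.67, edgeR FDR 0.0155) and -1.36 (SE 0.42, edgeR FDR 0.0374), and Mpc1, a subunit of the mitochondrial pyruvate carrier, rose by 3.82 (SE 0.37, edgeR FDR 0.000163) in TCF-1 cKO. Bsg, the chaperone of the lactate transporters, rose by 2.82 (SE 0.51, edgeR FDR 0.00626) in WT and 2.37 (SE 0.67, edgeR FDR 0.0272) in TCF-1 cKO.

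Whether the genotype difference changed with stage was tested by the interaction term of a fit to the 12 libraries, and 0 of 45 members were called, where 0.00465% of all genes were. At an unadjusted p below 0.05 there were 14 members, 9 lower and 5 higher, against 15.7% of all genes. Pcx had a value of -3.70 (SE 0.98, edgeR FDR 0.233), Sucla2 3.16 (SE 0.99, edgeR FDR 0.235) and Idh3a 2.60 (SE 0.82, edgeR FDR 0.235). Without the library labelled WT post-transplant replicate 3, 12 members were called, 7 lower and 5 higher, against 8.73% of all genes in either direction. Those higher were Hif1a at 2.13, Pdha1 at 2.37, Idh3a at 3.24, Sucla2 at 4.09 and Fh1 at 2.37, and those lower included Pcx at -3.86, Aldoa at -2.69 and Gpi1 at -2.63, with edgeR FDRs between 0.0508 and 0.074 for these 8.

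The promoters of the members were searched for binding motifs of factors known to act on these pathways. RefSeq promoters (GRCm38.p6, 250 bases before to 50 bases after the start) were at hand for 43 of 45 members. The core of the hypoxia response element, ACGTG or GCGTG on either strand, was present in 34 of 43 (79.1%) and in 46.7% of 27025 genes, and in 16 of 17 members called post-transplant and 18 of 26 others. The E-box CACGTG, which contains that core, was present in 7 of 43 (16.3%, against 8.09% of genes). The TCF core CTTTGA on either strand was present in 9 of 43 (20.9%, against 18.2%), in 2 of 17 members called post-transplant and 7 of 26 others. These matches are descriptions of the letters. The transcripts of members are richer in GC, at a median of 51.9% against 49.5% for genes tested post-transplant, and the GC content of promoters was not compared. The 250 bases before the starts of Ldha (chr7:46845554-46845803, plus strand), which rose most after transplant, and Aldoa (chr7:126799179-126799428, minus strand), which fell in TCF-1 cKO, are given with matches to the hypoxia response core in capitals, where CACGTG is a match on both strands.
Ldha promoter: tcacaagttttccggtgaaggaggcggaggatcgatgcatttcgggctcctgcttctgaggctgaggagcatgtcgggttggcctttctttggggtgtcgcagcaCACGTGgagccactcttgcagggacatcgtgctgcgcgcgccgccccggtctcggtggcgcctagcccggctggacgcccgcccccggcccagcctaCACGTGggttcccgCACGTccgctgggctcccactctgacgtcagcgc
Aldoa promoter: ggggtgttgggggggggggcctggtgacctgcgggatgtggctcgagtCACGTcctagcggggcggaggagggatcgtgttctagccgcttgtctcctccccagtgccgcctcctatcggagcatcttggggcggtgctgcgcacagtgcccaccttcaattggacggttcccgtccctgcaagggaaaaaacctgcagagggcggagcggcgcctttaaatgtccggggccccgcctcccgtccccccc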

How the data were processed

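RNA-seq was performed on 12 libraries, 3 in each of 4 groups, from SMART-Seq HT cDNA and Nextera XT libraries. The authors pseudoaligned paired-end reads with Kallisto (version 0.46.2) and deposited an estimated count, not scaled for depth or length, for each of 117497 transcripts. TPM values, scaled for effective transcript length and depth, were also deposited by the authors. The submitters' processing notes list mm9, and the transcript release is not given in the sources used here.

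Transcripts were joined without version numbers to GENCODE M21 (GRCm38), which gave 116374 transcripts in 35854 genes and between 99.5% and 99.7% of counts. Gene sums were rounded to whole numbers and tested with edgeR 4.0.16 (TMM, filterByExpr, quasi-likelihood test, Benjamini-Hochberg adjustment) within each stage, within each genotype and as an interaction, where the authors fitted TPM with voom and limma. The GC trend was a loess curve (span 0.4, degree 2) of each library's log2 CPM, relative to the mean library, on gene GC content. Fits were tested on simulated data. Totals from 4520270 to 32657005 set the precision, and floors of 3 counts cover counting error only, since reads carry no molecular identifiers. Copies of a member were genes aligned over at least 300 bases, and the greater part of their own length, at 90% identity or more. Strand was not used by the library kit, so reads of Pfkp and Pitrm1, G6pdx and Ikbkg, and Pdha1 and Map3k15, which overlap on opposite strands, and of Pgls and Fam129c, which overlap on the same strand, may be split.

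The members and lists were chosen with earlier results of these data known. Members named in a comparison were up to 8 past the FDR in each direction by p, isoenzymes, and 1 member a step, and every other member named, such as Fh1, Idh3a, Dld, Pgk1, Taldo1, Rpia and Mdh2, was chosen after its values were seen. Up to 4 other pathway genes were named a comparison. The alternatives were limma 3.58.1 voom without and with quality weights, DESeq2 1.42.0 (Wald test and size factors), library totals, counts scaled from TPM, no low-count filter, at least 3 libraries over 1 CPM, an FDR of 0.05, a replicate block, GC and length offsets, 1 fit over 12 libraries, copies added and each library left out. Adding copies by sequence and removing the GC trend with 1 library fewer were chosen after seeing the data. Computations used R 4.3.3.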

Additional observations from a re-analysis of the deposited data

Results flagged for a closer look

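The genotype difference of Hif1a and of Fh1 had opposite signs at the 2 stages, with every TCF-1 cKO library below every WT library pre-transplant and above every WT library post-transplant. That order is of CPM scaled over all 12 libraries. The post-transplant gap of Hif1a was narrow, with the highest WT library at 103 CPM and the lowest TCF-1 cKO library at 114 CPM. The ratio of mean normalized CPM in TCF-1 cKO to that in WT was 0.4465 for Hif1a pre-transplant and 1.606 post-transplant. For Fh1 the ratio was 0.719 pre-transplant and 3.052 post-transplant. Tested as an interaction by edgeR's quasi-likelihood test over all 12 libraries, the change of the log2 difference was 1.85 (SE 0.63, edgeR FDR 0.243) for Hif1a and 2.09 (SE 0.63, edgeR FDR 0.233) for Fh1, so neither passed an FDR of 0.1. Without the library labelled WT post-transplant replicate 3, the FDRs were 0.0737 and 0.0581. With each library's GC trend removed, the post-transplant log2 fold change of Hif1a was -0.46 and that of Fh1 0.72.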

How the results depend on the processing

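Counts of members called varied with the fit. Post-transplant, where 18 were called, limma-voom with quality weights called 30 (47.4% of all genes), the GC offset 4 (3.84%), the GC and length offset 4 (3.51%) and the replicate block with the GC offset 0 (2 genes in all). Pre-transplant, where 0 were called, the unfiltered fit called 1 (1.93% of all genes), quality weights 22 (40.3%) and DESeq2's Wald test 1 (7.74%). For WT post-transplant against pre-transplant, where 18 were called, library totals called 8 (28.9% of all genes) and the replicate block 11 (18.4%). An FDR of 0.05 called 11, and the share of all genes at that FDR was not counted. For the interaction, where 0 were called, the unfiltered fit called 2 (1.72% of all genes), quality weights 12 (16.0%) and DESeq2's Wald test 8 (7.96%). Leaving out 1 library at a time gave 0 to 27 members post-transplant, 0 to 16 pre-transplant, 6 to 21 for WT and 18 to 29 for TCF-1 cKO between stages, and 0 to 12 for the interaction. In TCF-1 cKO between stages these fits called between 26.5% and 33.2% of all genes. Post-transplant, 27 were called without WT replicate 3 (29.1% of all genes) and 0 without any 1 of the other 5 libraries. The 16 pre-transplant were called without TCF-1 cKO replicate 3 (12.7% of all genes). The 12 of the interaction were called without WT post-transplant replicate 3 (8.73%). In WT between stages, 6, 8 and 7 were called without pre-transplant replicates 1, 2 and 3 (10.7%, 12% and 8.37% of all genes). Without post-transplant replicate 1, 11 were called (10.9%). Tkt and Taldo1 lost their calls without any 1 of the 3 pre-transplant libraries. Deviations of same-numbered replicates from their group means correlated weakly, at 0.104, 0.0484 and 0.141 post-transplant and between -0.159 and 0.228 over all comparisons. The correlations were all positive post-transplant and in WT between stages, but not in the other comparisons. The numbers were not taken as pairs. With the replicate block alone 18 members were called lower and 1 higher post-transplant, against 11.1% and 1.64% of all genes.

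Under library totals the median log2 fold change changed sign to 0.048 for pyruvate entry and the TCA cycle post-transplant, to -0.16 for all members and -0.41 for pyruvate entry and the TCA cycle in WT between stages, and in TCF-1 cKO between stages to -0.65 for all members, -0.53 for glycolysis, -0.80 for pentose phosphate and -0.64 for pyruvate entry and the TCA cycle. Among members not called post-transplant, Hk2 turned to 0.65 with counts scaled from TPM and 0.19 without WT replicate 1 (-1.30 to 0.19 with 1 library left out), Pfkm to 0.19 with the GC offset and 0.35 with the GC and length offset, and Ldha to 0.030 with library totals. Slc16a1 turned to -0.27 with the GC offset, -0.24 with the GC and length offset, -0.16 without WT replicate 2 (-0.16 to 1.01 with 1 library left out) and -0.27 with the GC offset and 1 library fewer. Hif1a turned to -0.46 with the GC offset, -0.47 with the replicate block and GC offset, -0.36 with the GC and length offset and -0.55 with the GC offset and 1 library fewer. Suclg2 turned to -0.45, -0.42, -0.30 and -0.35 under the same 4 settings and -0.17 without WT replicate 2 (-0.17 to 0.49 with 1 library left out). G6pdx in TCF-1 cKO between stages turned to -0.19 with library totals, and it had been called higher. With counts per kilobase in place of TPM, shares in TCF-1 cKO between stages moved to differences of -1.48 percentage points for Pfkm, -22.8 for Slc16a3 and -37.0 for Suclg2. Each of the 18 members called lower post-transplant was called under 13 to 16 of 22 alternatives and had a negative log2 fold change under all of them. The causes were not tested. Depth limits Ldhb most, with 0 to 252 counts a library, and then Pfkm, with 4 to 336.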
